A study of Mus musculus with 8 samples.

Results

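Peroxisomal fatty acid oxidation in mouse liver was described through 9 genes, *Abcd2*, *Abcd3*, *Ehhadh*, *Hsd17b4*, *Acaa1a*, *Acaa1b*, *Decr2*, *Crot* and *Pex11a*. They were chosen by symbol from the 19267 genes of the count table, and all 9 passed the filter on low counts that left 13993 genes to be tested. RNA sequencing was done on livers of male C57BL/6 mice that were 9 weeks old, with 2 libraries for every combination of 2 genotypes and 2 diets. *Elf4-/-* mice (Elf4 fl/fl with Villin-Cre) lacked *Elf4*, which encodes a transcription factor, in the epithelium of the intestine alone, so that the liver itself kept the gene, and WT mice carried Cre according to the methods of the study. From 6 weeks of age and for 21 days, mice were pair-fed a Lieber-DeCarli liquid diet in which alcohol made up 5% (w/v), called EtOH, or the same diet with isocaloric maltose dextrin instead, called Control. Groups are named by genotype and diet (WT Control and so on). The labels number the libraries of a group as replicates and do not say more about their origin, so p-values measure the spread between these libraries, which may in part be technical.

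Peroxisomes shorten very long chain, branched and dicarboxylic fatty acids, which mitochondria handle poorly. Acyl-CoA enters through transporters of the ABCD family, is oxidized, passes through a multifunctional protein that hydrates and dehydrogenates it, is cleaved by a thiolase, and leaves as a shortened chain joined to carnitine. In rodent liver many of these genes are classical targets of PPARalpha, a nuclear receptor that is activated by fatty acids and by peroxisome proliferators. Alcohol itself is oxidized in part by peroxisomal catalase and changes the supply and the breakdown of fatty acids in the liver.

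In WT livers, 6 of the 9 genes rose under EtOH, from 1.83-fold for *Hsd17b4* to 21.0-fold for *Ehhadh*, beside 10.8% of all genes called higher. The other members were *Acaa1a*, *Crot* and *Decr2*, with log2 fold changes of 0.32, 0.34 and −0.091 that did not pass the test. The number of WT calls depended on single libraries, among these genes and over all genes. In *Elf4-/-* livers *Ehhadh* alone passed the test, with an 8.44-fold rise, although all 9 log2 fold changes were above 0. Over all genes, 1.71% were called higher there. Neither genotype comparison nor the interaction of genotype and diet gave a call among the 9 genes in edgeR. Of all genes, 0.143% were called for genotype under EtOH, 0.0143% under control diet and 0.0% for the interaction.

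Library totals ran from 6171051 to 9157362 counts. Expression is given as CPM, counts scaled to a common library total by TMM factors, which set the bulk of genes equal between libraries. Genes of the mitochondrial genome took 23.4% to 33.7% (Control) and 10.8% to 12.5% (EtOH) of counts in WT, against 18.5% to 18.7% (Control) and 18.3% to 22.1% (EtOH) in *Elf4-/-*. The replicates of *Elf4-/-* EtOH differed most from each other, with an SD of the log2 difference of 0.681 over 9398 genes, against 0.354 to 0.504 in the other groups. *Elf4* had 6 to 36 counts in every library, which is a weak check of the labels, since its deletion was confined to the intestine. Of 8 hepatocyte markers, none was absent from any library, and their summed level was 36083 to 75683 CPM.

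The promoter of *Ehhadh* is shown because this gene had the largest diet difference of the members. Those of *Acaa1a* and *Acaa1b* are shown because, of these near-identical neighbours on chromosome 9, *Acaa1b* passed the test in WT and *Acaa1a* did not. Each window runs from 250 bases before to 50 bases after the start given by RefSeq on GRCm38.p6, 5′ to 3′ on the strand of the gene, and capitals mark CCAAT (or ATTGG, its reverse complement) and GGGCGG (or CCGCCC). The windows are chr16:21787785-21788084 on the minus strand for *Ehhadh*, chr9:119341044-119341343 on the plus strand for *Acaa1a* and chr9:119157044-119157343 on the minus strand for *Acaa1b*. That of *Acaa1a* lies inside the span of the gene in the annotation used for coordinates, GENCODE M21 (119339676 to 119350299). The RefSeq start of *Acaa1a* is thus downstream of the start of that span.
Ehhadh: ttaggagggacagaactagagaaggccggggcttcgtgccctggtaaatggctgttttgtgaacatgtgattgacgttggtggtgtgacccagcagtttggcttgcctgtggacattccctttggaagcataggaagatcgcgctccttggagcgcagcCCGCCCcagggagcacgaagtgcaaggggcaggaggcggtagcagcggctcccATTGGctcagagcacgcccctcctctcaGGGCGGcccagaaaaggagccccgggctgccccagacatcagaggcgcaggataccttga
Acaa1a: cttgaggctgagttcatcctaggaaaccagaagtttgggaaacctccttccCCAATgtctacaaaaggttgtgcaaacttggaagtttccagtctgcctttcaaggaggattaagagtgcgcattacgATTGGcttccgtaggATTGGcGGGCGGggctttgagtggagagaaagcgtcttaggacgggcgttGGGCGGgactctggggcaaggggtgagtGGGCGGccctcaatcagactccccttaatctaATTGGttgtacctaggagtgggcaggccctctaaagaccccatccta
Acaa1b: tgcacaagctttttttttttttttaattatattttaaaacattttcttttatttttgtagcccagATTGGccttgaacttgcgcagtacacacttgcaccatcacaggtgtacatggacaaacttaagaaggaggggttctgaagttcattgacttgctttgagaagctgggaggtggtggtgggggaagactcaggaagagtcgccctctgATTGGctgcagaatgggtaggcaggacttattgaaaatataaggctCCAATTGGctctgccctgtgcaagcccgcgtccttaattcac
CCAAT stood in 4 of the 7 members with a promoter entry (*Acaa1a*, *Acaa1b*, *Crot* and *Ehhadh*), beside 41.1% of all 27025 genes with one. GGGCGG stood in 5 of 7 (*Acaa1a*, *Crot*, *Decr2*, *Ehhadh* and *Pex11a*), beside 38.2% of all genes. *Acaa1a* held 4 CCAAT and 3 GGGCGG matches, while *Acaa1b* held 4 CCAAT matches, of which 2 overlap, and 0 GGGCGG. The letters TATAAA were in 0 of 7 member promoters and in 15.7% of all genes. PPARalpha binds with its partner RXR to 2 copies of AGGTCA in the same orientation spaced by 1 base. AGGTCA was in 0 of 7 member promoters (18.1% of all genes), and so was the spaced repeat, both exact (0.0481%) and with any base at the 4th place of each copy (0.451%). All motifs were searched on both strands. Those other than AGGTCA and its repeat were picked after the sequences were seen, and a window without a match says nothing of sites farther away.

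Mice have a pair of peroxisomal thiolase genes, *Acaa1a* (chromosome 9, 119339676 to 119350299, plus strand) and *Acaa1b* (chromosome 9, 119148023 to 119157093, minus strand). Their coding sequences are both 1272 bases long and differ at 44 of them (96.5% identity). Over coding bases 259 to 318, the stretch of 60 bases shown here because it tells the copies apart best, they differ at 11 bases, given in capitals.
Acaa1a: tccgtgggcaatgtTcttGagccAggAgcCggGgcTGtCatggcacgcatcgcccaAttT
Acaa1b: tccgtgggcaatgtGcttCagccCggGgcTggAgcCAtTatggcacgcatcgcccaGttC
Of 1123 windows of 150 bases, 178 (15.9%) hold no difference, and the longest shared run is 327 bases. Reads from such stretches could have been dropped or divided between the copies, and how the counting treated them is not stated, so their levels are uncertain to that extent. *Acaa1a* also shares 290 exon bases (6.57%) with *Myd88* on the opposite strand, and *Acaa1b* shares 224 (11.4%) with *Dlec1* on the opposite strand. Whether the counting used strand is not stated either.

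**Figure D1:**
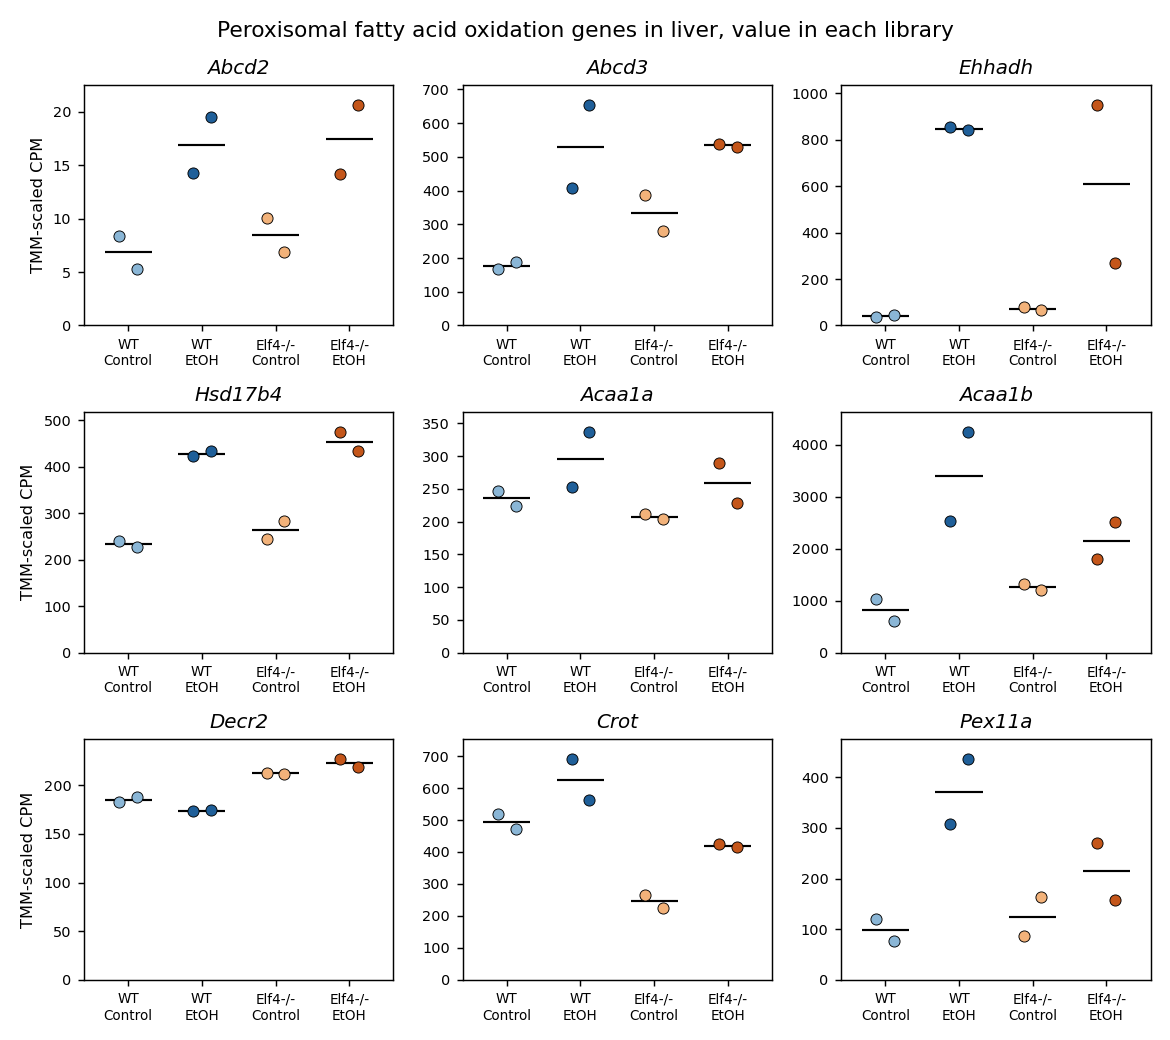
TMM-scaled CPM (vertical axes, from 0) of the 9 genes in each of the 8 libraries, with 1 panel a gene; points are libraries, black lines are means of the 2 libraries of a group. All 4 EtOH points lie above all 4 Control points for *Abcd2*, *Abcd3*, *Ehhadh*, *Hsd17b4* and *Acaa1b*, and the *Ehhadh* points of *Elf4-/-* EtOH lie at 951 and 270.0 CPM.

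*Abcd2* and *Abcd3* encode ABC transporters that bring acyl-CoA into the peroxisome. *Abcd2* (chromosome 15, 91145871 to 91191799, minus strand of GRCm38) was at 8.37 and 5.33 CPM (Control) and 14.3 and 19.5 (EtOH) in WT, and 10.03 and 6.85 (Control) and 14.2 and 20.7 (EtOH) in *Elf4-/-*. These values rest on 29 to 192 counts a library, the fewest among the members, and the diet groups did not overlap in either genotype. The log2 fold change of EtOH against Control was 1.30 ± 0.34 (SE) in WT (edgeR, p adjusted over all genes = 0.0235) and 1.03 ± 0.32 in *Elf4-/-* (adjusted p = 0.107). The WT call was lost without WT Control replicate 2 or without either WT EtOH library, with log2 fold changes of 1.01 to 1.51. *Abcd3* (chromosome 3, 121758774 to 121815302, minus strand) was at 167 and 187 CPM (Control) and 407 and 654 (EtOH) in WT, and 387 and 279 (Control) and 539 and 529 (EtOH) in *Elf4-/-*. Its EtOH ranges overlapped between genotypes, while its Control levels in *Elf4-/-* lay above those of WT. The diet difference was 1.58 ± 0.28 on the log2 scale in WT (edgeR adjusted p = 0.00575) and 0.68 ± 0.28 in *Elf4-/-* (adjusted p = 0.196). Without WT EtOH replicate 2 the WT value was 1.19 (edgeR adjusted p = 0.061).

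*Ehhadh* encodes the L-bifunctional protein, which hydrates and dehydrogenates acyl-CoA and takes dicarboxylic acids. It lies on chromosome 16 (21761287 to 21787807, minus strand). The level was 36.5 and 44.4 CPM (Control) and 856 and 842 (EtOH) in WT, and 80.0 and 64.6 (Control) and 951 and 270.0 (EtOH) in *Elf4-/-*. WT EtOH libraries lay close together, and those of *Elf4-/-* EtOH far apart. Mean expression rose from 40.5 ± 5.64 to 849 ± 10.2 CPM (SD, n = 2) in WT, which on the log2 scale was 4.39 ± 0.52 (SE) with an edgeR adjusted p = 0.0017. This call held with each of the 8 libraries left out, where the value was 4.25 to 4.54. In *Elf4-/-* the mean went from 72.3 ± 10.9 to 611 ± 482 CPM (SD, n = 2), or 3.08 ± 0.49 (SE) on the log2 scale with an edgeR adjusted p = 0.0183. Leaving out *Elf4-/-* EtOH replicate 1 gave 1.90, and leaving out replicate 2 gave 3.69. The call was lost without either *Elf4-/-* Control library (adjusted p = 0.138 and 0.198) and in a model of the 4 *Elf4-/-* libraries alone (adjusted p = 0.0959).

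The gap between the *Elf4-/-* EtOH libraries was 1.82 on the log2 scale for *Ehhadh*, larger than that of 97.9% of 9398 genes in the same pair. Of the 9 members, 7 were higher in replicate 1 than in replicate 2, as were 14 of 16 PPARalpha targets outside the peroxisome and 49.6% of all genes tested. The median log2 difference was 0.049 over the members, 0.57 over those targets and −0.0059 over all genes. *Abcd3*, *Crot* and *Decr2* were higher by only 0.026 to 0.049. *Acaa1b* and *Abcd2* were lower in replicate 1. All 6 sinusoidal endothelial, 6 stellate cell and 3 neutrophil markers were also higher in replicate 1, with median log2 differences of 0.75, 0.78 and 2.48, against 3 of 8 hepatocyte and 4 of 7 Kupffer cell markers. Their part in the gap was not tested.

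*Hsd17b4* encodes the D-bifunctional protein, which serves the same middle steps for very long chain and branched fatty acids. It lies on chromosome 18 (50128201 to 50196269, plus strand). Its level was 240.2 and 228 CPM (Control) and 423 and 433 (EtOH) in WT, and 245 and 284 (Control) and 475 and 434 (EtOH) in *Elf4-/-*. The spread between replicates was small in every group, and no EtOH library fell among the Control libraries. The diet difference on the log2 scale was 0.87 ± 0.21 (SE) in WT (edgeR adjusted p = 0.018) and 0.78 ± 0.21 in *Elf4-/-* (adjusted p = 0.0744). DESeq2 called the *Elf4-/-* difference as well (adjusted p = 0.0165), as did edgeR without *Elf4-/-* EtOH replicate 2 (adjusted p = 0.0393). The WT call was lost without any 1 of the 4 WT libraries, where the log2 fold change stayed between 0.83 and 0.90.

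Thiolases close each turn of the pathway by splitting off acetyl-CoA. *Acaa1b* was the member with the most counts in every library. It was at 1029 and 607 CPM (Control) and 2541 and 4245 (EtOH) in WT, and 1323 and 1208 (Control) and 1798 and 2508 (EtOH) in *Elf4-/-*. EtOH libraries lay above Control libraries in both genotypes. The log2 fold change was 2.05 ± 0.37 (SE) in WT (edgeR adjusted p = 0.00576) and 0.77 ± 0.36 in *Elf4-/-* (adjusted p = 0.253), and the WT value was 1.62 without WT EtOH replicate 2 (adjusted p = 0.0554). *Acaa1a* was at 247 and 224 CPM (Control) and 253 and 337 (EtOH) in WT, and 212 and 203 (Control) and 289 and 229 (EtOH) in *Elf4-/-*. Its diet differences were 0.32 ± 0.23 on the log2 scale in both genotypes, not past the threshold (edgeR adjusted p = 0.337 and 0.457), and the range of libraries did not overlap within either genotype. Of the counts of both copies in WT, *Acaa1b* made up 80.6% and 73.0% under Control and 90.9% and 92.6% under EtOH. In *Elf4-/-* the share was 86.2% and 85.6% under Control and 86.2% and 91.6% under EtOH. The copies together came to 831 to 1277 CPM (Control) and 2794 to 4582 (EtOH) in WT, and 1411 to 1535 (Control) and 2087 to 2737 (EtOH) in *Elf4-/-*.

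*Decr2* encodes the peroxisomal dienoyl-CoA reductase, an auxiliary enzyme for unsaturated chains (chromosome 17, 26081208 to 26090337, minus strand). It was at 183 and 188 CPM in WT Control and 174 in both WT EtOH libraries. In *Elf4-/-* it was 212 in both Control libraries and 227 and 219 on EtOH. Replicates lay close together in every group. The diet difference was −0.091 ± 0.19 (SE) on the log2 scale in WT (edgeR adjusted p = 0.764) and 0.072 ± 0.19 in *Elf4-/-* (adjusted p = 0.861). With library totals alone in place of TMM the WT value was 0.34, so that its sign depends on the scaling.

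*Crot* encodes carnitine octanoyltransferase, which readies shortened chains for export to mitochondria (chromosome 5, 8966033 to 8997324, minus strand). Its level was 518 and 472 CPM (Control) and 691 and 562 (EtOH) in WT, and 267 and 226 (Control) and 426 and 414 (EtOH) in *Elf4-/-*. Among the members, *Crot* alone had every *Elf4-/-* library below every WT library. The share of all genes with such a split was not computed. The diet difference on the log2 scale was 0.34 ± 0.22 (SE) in WT (edgeR adjusted p = 0.303) and 0.77 ± 0.23 in *Elf4-/-* (adjusted p = 0.0916), and DESeq2 called the latter (adjusted p = 0.0264).

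*Pex11a* encodes a membrane protein of peroxisome division that is induced by peroxisome proliferators (chromosome 7, 79735957 to 79743131, minus strand). It was at 120.2 and 76.0 CPM (Control) and 308 and 436 (EtOH) in WT, and 86.0 and 164 (Control) and 271 and 158 (EtOH) in *Elf4-/-*. The WT groups were well apart, and the *Elf4-/-* groups overlapped. The log2 fold change was 1.92 ± 0.39 (SE) in WT (edgeR adjusted p = 0.00929) and 0.78 ± 0.38 in *Elf4-/-* (adjusted p = 0.272). The WT call was lost without WT Control replicate 2 or WT EtOH replicate 2 (adjusted p = 0.0663 and 0.0724).

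**Figure D2:**
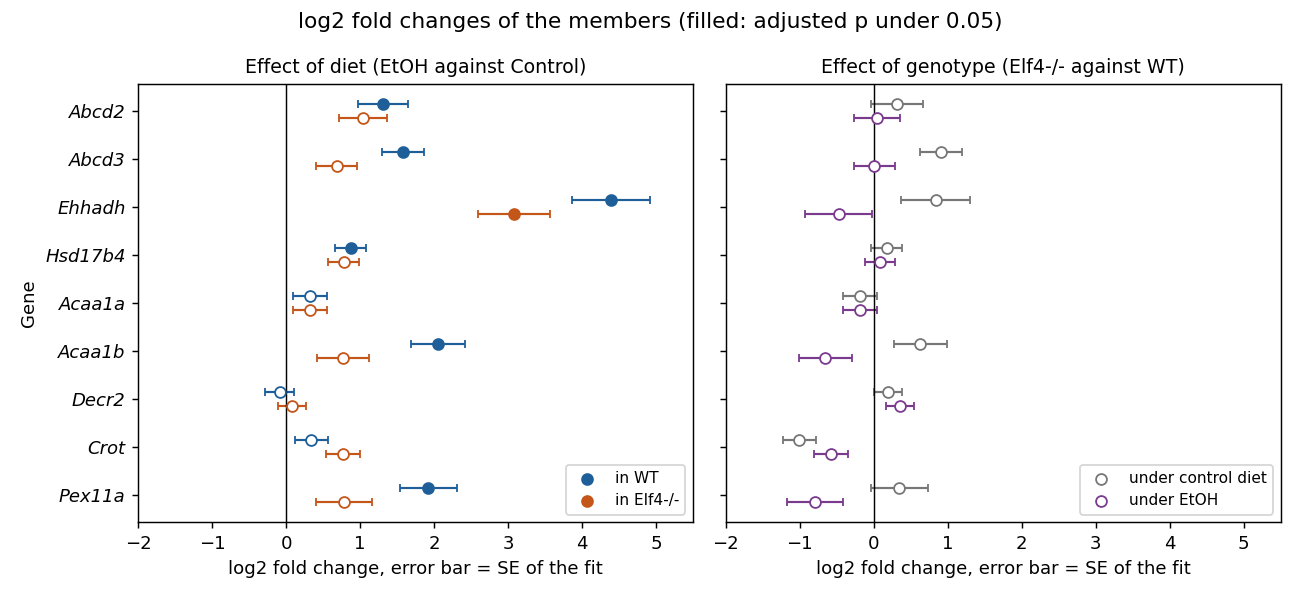
log2 fold changes (horizontal axes) with their SE for the 9 genes, for diet within each genotype (left) and genotype within each diet (right); filled points have an edgeR adjusted p under 0.05. For diet, 6 points are filled in WT and 1 in *Elf4-/-*, and no genotype point is filled.

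Taken over the list, 6 of 9 members rose and 0 fell in WT (adjusted p under 0.05), where edgeR called 10.8% of all 13993 genes higher and 10.8% lower. The median log2 fold change of the members was 1.30, against 0.012 over all genes. DESeq2 likewise called 6 members, beside 9.94% of all genes called higher. The number of calls fell when any 1 WT library was left out, among the members and over all genes alike. Such a fit rests on 1 library in a group. The median of the members was 1.01 to 1.51 with any 1 of the 8 libraries left out. With library totals alone 8 were called, with *Acaa1a* (0.76) and *Crot* (0.77) added, while the calls over all genes went from 3025 to 4050 and the median of all genes moved by 0.43.

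In *Elf4-/-*, 1 of 9 members was called higher and 0 lower, beside 1.71% of all genes called higher and 1.18% lower, and 5 members had an unadjusted p under 0.05, as did 2966 of all genes. The median log2 fold change was 0.77, against 0.013 over all genes. DESeq2 called 3 members, *Ehhadh*, *Hsd17b4* and *Crot*, beside 3.17% of all genes called higher. Ignoring genotype, 5 members had all 4 EtOH libraries above all 4 Control libraries, beside 13.9% of all genes, and 0 had them all below, beside 14.0%. With library totals alone the count above was 7, with *Acaa1a* and *Pex11a* added, while that of all genes went from 1943 to 2452.

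The interaction asked whether the diet difference itself differed between genotypes. It was called for 0 of 9 members and for 0.0% of all genes in edgeR, and for 0 members in DESeq2. The median over the members was −0.27, and 7 of 9 values were below 0, as were 7008 of all genes. With library totals alone, which moved the median of all genes by −0.46, it was 9 of 9. At an unadjusted p under 0.05 there were 2 members, *Acaa1b* (−1.29 ± 0.50 on the log2 scale, edgeR adjusted p = 0.434) and *Abcd3* (−0.90 ± 0.39, adjusted p = 0.485), and 1412 of all genes. *Ehhadh* had −1.31 ± 0.65 (edgeR adjusted p = 0.539), but −2.49 when *Elf4-/-* EtOH replicate 1 was left out, where it passed the threshold (adjusted p = 0.0165). *Pex11a* had −1.14 ± 0.54 (edgeR adjusted p = 0.511). The larger number of calls in WT does not show that the genotypes responded differently.

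Genotype under control diet was compared to ask whether intestinal loss of *Elf4* alone went with other levels of these genes in the liver. edgeR called 0 of 9 members and 0.0143% of all genes, and DESeq2 called 1 member, *Crot*, and 0.5% of all genes. *Crot* was 2.01-fold lower in *Elf4-/-* Control, from 495 ± 32.3 to 246 ± 28.7 CPM (SD, n = 2), with a log2 difference of −1.01 ± 0.23 (SE, edgeR adjusted p = 0.279 and unadjusted p = 0.00124; DESeq2 adjusted p = 0.00787). It was −0.89 to −1.12 with any 1 library left out. *Abcd3* was 1.88-fold higher, with a log2 fold change of 0.91 ± 0.28 (edgeR adjusted p = 0.471 and unadjusted p = 0.00879). These were the 2 members with an unadjusted p under 0.05, as had 1023 of all genes. The groups did not overlap for 7 members, 5 of them higher and 2 lower (*Crot*, and *Acaa1a* at −0.18, or 0.052 with library totals alone) in *Elf4-/-*, beside 38.5% of all genes without overlap in either direction. *Ehhadh* (0.84 ± 0.47) and *Acaa1b* (0.63 ± 0.36) were among the 5 (edgeR adjusted p = 0.764 and 0.772).

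Genotype under EtOH was called for 0 of 9 members and 0.143% of all genes by edgeR, and for 0 members by DESeq2. *Crot*, the member with an unadjusted p under 0.05 (as had 1469 of all genes), was again lower in *Elf4-/-*, with a log2 fold change of −0.58 ± 0.22 (edgeR adjusted p = 0.41). *Pex11a* had −0.80 ± 0.38 (edgeR adjusted p = 0.493), *Acaa1b* −0.66 ± 0.36 (adjusted p = 0.574) and *Decr2* 0.36 ± 0.19 (adjusted p = 0.562). *Abcd2*, *Abcd3* and *Hsd17b4* had values from 0.0095 to 0.085 (SE 0.21 to 0.31), which were below 0 with library totals alone. The groups did not overlap for 5 members, 2 higher and 3 lower, beside 41.3% of all genes. *Ehhadh* turned on 1 library, with −0.48 ± 0.45 over all (edgeR adjusted p = 0.779), −1.65 with *Elf4-/-* EtOH replicate 1 left out (adjusted p = 0.018) and 0.16 without replicate 2. The genotype contrasts share their libraries with the diet contrasts, so their values are not separate evidence.

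**Figure D3:**
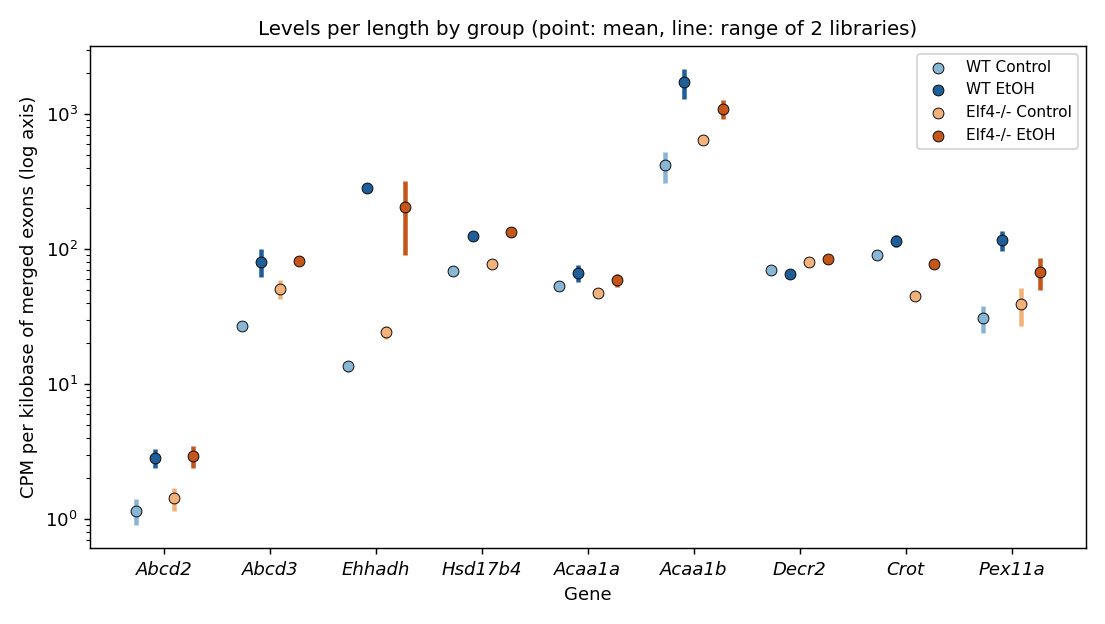
Level per kilobase of merged exons (vertical log axis, CPM per kilobase) of the 9 genes in the 4 groups; points are means and lines span the 2 libraries of a group. *Acaa1b* is highest and *Abcd2* lowest in every group, and *Ehhadh* moves from 13.6 to 285 in WT.

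Levels of different genes were compared per kilobase of merged exons. *Acaa1b* ranked first in every group, with 417 ± 152 (Control) and 1729 ± 614 (EtOH) CPM per kilobase (SD, n = 2) in WT, and 645 ± 41.4 (Control) and 1098 ± 256 (EtOH) in *Elf4-/-*. *Abcd2* ranked last in every group, at 1.15 to 2.93 CPM per kilobase. *Ehhadh* ranked 8 of 9 under Control in both genotypes, at 13.6 ± 1.89 and 24.3 ± 3.65, and 2 of 9 under EtOH, at 285 ± 3.42 in WT and 205 ± 162 in *Elf4-/-*. Its level in *Elf4-/-* EtOH spans 90.6 to 319, so that its order against *Hsd17b4* (133 ± 8.60) there is within the spread. *Decr2* (69.9) and *Hsd17b4* (68.8) differed by less than their spread in WT Control, as did *Abcd3* (80.5) and *Acaa1a* (66.9) in WT EtOH. Per coding length *Acaa1b* and *Abcd2* kept their places, while *Ehhadh* ranked 3 and *Pex11a* 2 under EtOH. All 9 genes together took 0.215% and 0.179% (Control) and 0.642% and 0.918% (EtOH) of counts in WT, and 0.301% and 0.253% (Control) and 0.476% and 0.490% (EtOH) in *Elf4-/-*.

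The rest of peroxisomal fatty acid oxidation was read from a list of 22 further genes, of which 21 were tested. In WT, 7 rose, among them *Acad11*, *Acot4*, *Acot8*, *Crat*, *Ech1* and *Hacl1*, and 2 fell (*Amacr* and *Nudt7*), with a list median of 0.043 on the log2 scale, beside 10.8% of all genes called higher and 10.8% lower. Fewer were called higher without WT EtOH replicate 2, and fewer lower without WT Control replicate 1. Fewer of all genes were called there too. *Acot4*, a peroxisomal thioesterase, went from 31.3 and 17.4 to 225 and 317 CPM, which was 3.48 ± 0.36 (SE) on the log2 scale, as are the values with SE in parentheses that follow (edgeR adjusted p = 0.000992). *Hacl1*, a lyase of alpha-oxidation, was at 4.65 and 4.04 CPM (Control) and 38.1 and 24.8 (EtOH) in WT, and 6.14 and 6.40 (Control) and 19.9 and 29.9 (EtOH) in *Elf4-/-*. It was the 1 gene of the list called in *Elf4-/-* (1.99 ± 0.30, edgeR adjusted p = 0.0157, against 2.85 ± 0.32 and 0.00146 in WT), and that call was lost without either *Elf4-/-* Control library. DESeq2 called 5 genes of the list higher there, beside 3.17% of all genes. In edgeR, calls in *Elf4-/-* rose without *Elf4-/-* EtOH replicate 2, in the list and over all genes alike.

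Peroxisome biogenesis and other peroxisomal enzymes were read from 2 more lists. Their WT counts stand beside 10.8% of all genes called in each direction. Of 15 biogenesis genes, 1 rose in WT and 0 fell, with a median log2 fold change of 0.18. More were called lower in WT without *Elf4-/-* EtOH replicate 2, where more of all genes were called too. The gene that rose was *Pex13*, a docking protein of the import machinery, which went from 31.1 and 28.5 to 54.9 and 60.8 CPM (0.96 ± 0.20, edgeR adjusted p = 0.0107). Of 14 other peroxisomal enzymes and membrane proteins, 0 rose and 2 fell, with a median log2 fold change of 0.10. They were *Agxt*, which detoxifies glyoxylate (114 and 154 against 38.6 and 13.7 CPM, −2.36 ± 0.40, edgeR adjusted p = 0.0048), and *Pipox*, which oxidizes pipecolic acid and sarcosine (497 and 403 against 215 and 196 CPM, −1.13 ± 0.24, adjusted p = 0.0118). In *Elf4-/-* both lists had 0 calls in edgeR and in DESeq2, and 3 and 2 genes with an unadjusted p under 0.05. Without *Elf4-/-* EtOH replicate 2 some genes of both lists were called, and calls over all genes rose as well. The *Pex13* and *Pipox* calls were each lost without any 1 of 3 WT libraries. With library totals alone 8 biogenesis genes were called higher in WT, a scaling that moved the median of all genes by 0.43.

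**Figure D4:**
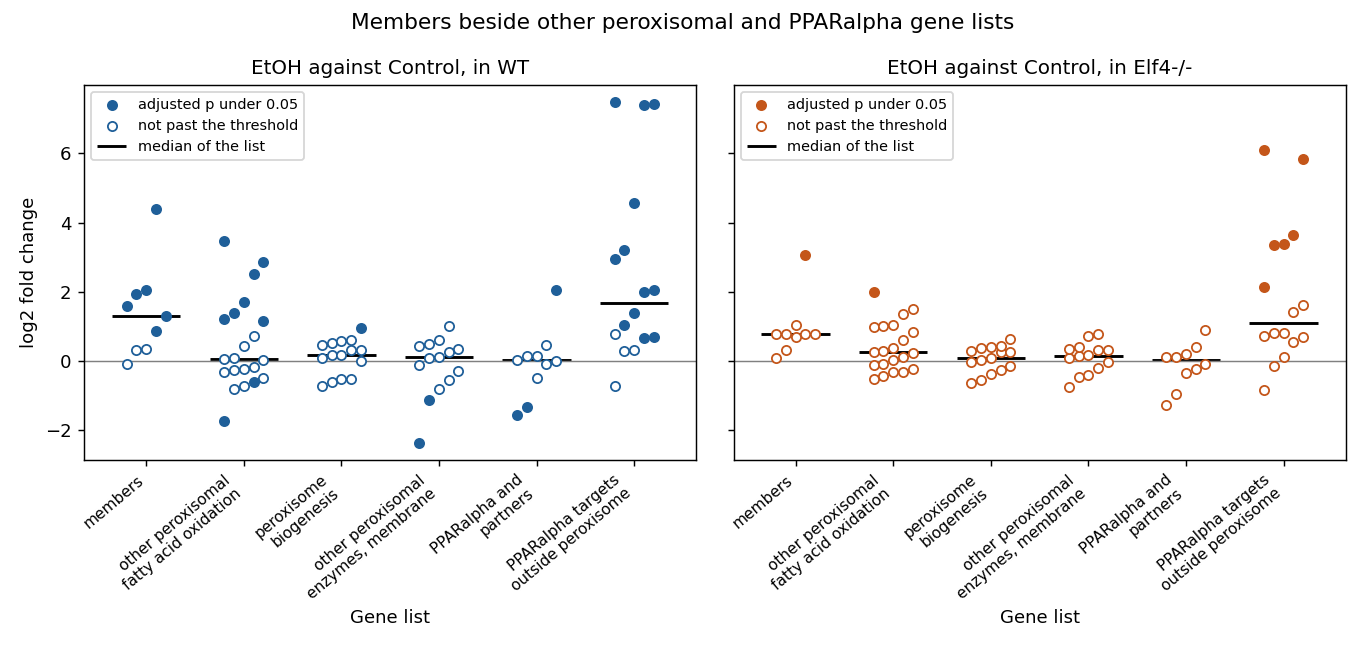
log2 fold changes of EtOH against Control (vertical axes) for the members and for 5 other gene lists in WT (left) and *Elf4-/-* (right); each point is a gene, filled where the edgeR adjusted p is under 0.05, and black lines are list medians. PPARalpha targets outside the peroxisome have the highest medians, 1.68 in WT and 1.10 in *Elf4-/-*.

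PPARalpha targets outside the peroxisome serve mitochondrial and microsomal oxidation, uptake and storage of fatty acids. Over all genes, edgeR called 10.8% higher and 10.8% lower in WT, and 1.71% higher and 1.18% lower in *Elf4-/-*. In WT, 12 of 16 genes of this list rose and 0 fell, with a median of 1.68. *Cyp4a14*, a fatty acid omega-hydroxylase that yields dicarboxylic acids, went from 28.3 and 1.10 to 2563 and 2712 CPM in WT (7.49 ± 1.28, edgeR adjusted p = 0.00482), with 11.20 without WT Control replicate 1 and 6.54 without WT Control replicate 2. *Acot1*, a cytosolic thioesterase, went from 1.12 and 0.735 to 147 and 176 CPM (7.43 ± 0.49, adjusted p = 0.000163). Both have close paralogs, with which reads could have been divided. In *Elf4-/-* 6 rose (*Acot1*, *Cd36*, *Cyp4a10*, *Cyp4a14*, *Pdk4* and *Plin2*) and 0 fell, with a median of 1.10. The count that rose was 10 in DESeq2, beside 3.17% of all genes called higher. In a model of the *Elf4-/-* libraries alone it was 3, where 40 of all genes were called in either direction. It fell without *Elf4-/-* Control replicate 1 and rose without *Elf4-/-* EtOH replicate 2, as did the calls over all genes. *Cyp4a14* went from 56.5 and 20.4 to 4354 and 967 CPM in *Elf4-/-* (6.11 ± 1.19, edgeR adjusted p = 0.0307). That call was lost without either WT EtOH library, without either *Elf4-/-* Control library, and in a model of the *Elf4-/-* libraries alone. *Pdk4*, which restrains glucose oxidation, went from 3.17 and 0.447 to 219 and 8.34 CPM in *Elf4-/-* (5.84 ± 1.30, adjusted p = 0.0456). Like *Ehhadh*, both were far higher in the first *Elf4-/-* EtOH library, and without it they had 4.64 and 2.06. *Pdk4* was not called in *Elf4-/-* when any library but *Elf4-/-* EtOH replicate 2 was left out.

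The receptor and its partners gave 3 calls of 10 genes in WT, 1 higher and 2 lower, and 0 in *Elf4-/-*. In WT edgeR called 10.8% of all genes higher and 10.8% lower, and the list median was 0.015 on the log2 scale. With a list this short, these counts lie near those shares. *Ppara* itself was at 22.7 and 40.2 CPM (Control) and 42.9 and 42.9 (EtOH) in WT, and 48.0 and 38.7 (Control) and 53.0 and 40.9 (EtOH) in *Elf4-/-*, and was not past the threshold in either genotype (edgeR adjusted p = 0.26 and 0.844). *Fgf21*, a hormone under PPARalpha control, rose from 4.09 and 4.04 to 12.5 and 21.4 CPM in WT (2.06 ± 0.46, edgeR adjusted p = 0.0141). The coactivator *Ppargc1a* fell from 11.7 and 12.7 to 6.31 and 3.46 CPM (−1.33 ± 0.37, adjusted p = 0.0304). *Ppargc1b*, a related coactivator, was the other gene that fell. Both the *Fgf21* and the *Ppargc1a* calls were lost without any 1 of 3 WT libraries.

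Markers of other liver cells moved with the diet too. The WT counts stand beside 10.8% of all genes called higher and 10.8% lower. Those of *Elf4-/-* stand beside 1.71% called higher and 1.18% lower. In WT, 7 of 7 Kupffer cell markers rose (summed level 168 to 213 CPM in Control, 564 to 625 in EtOH), as did 5 of 6 sinusoidal endothelial markers (72.4 to 128 against 289 to 348) and 4 of 6 stellate cell markers (47.8 to 127 against 338 to 475). Of 8 hepatocyte markers 1 rose (*Cyp2e1*) and 1 fell (*Apoa1*), with sums of 54456 to 75683 CPM in Control and 36083 to 43003 in EtOH. Their log2 fold changes had a median of −0.65, and 7 of 8 were below 0, as were 6903 of all genes. In *Elf4-/-* the sums were 156.6 to 156.9 against 213 to 231 CPM for Kupffer, 170 to 193 against 166 to 291 for endothelial and 165 to 195 against 272 to 429 for stellate cells, with *Marco*, a Kupffer gene, as the 1 call, which was lost without *Elf4-/-* Control replicate 1. Without *Elf4-/-* EtOH replicate 2, more Kupffer, endothelial, stellate and neutrophil markers were called higher in *Elf4-/-*, and calls over all genes rose as well. DESeq2 on all libraries called 2 stellate markers higher and 2 hepatocyte markers, 1 in each direction. It called 3.17% of all genes higher. Under EtOH, 2 of 7 Kupffer markers (*Cd5l* and *Clec4f*) were called lower in *Elf4-/-* than in WT, beside 0.143% of all genes called in either direction. All 7 had log2 fold changes below 0 there, with a median of −1.40. Each of the 7 had an unadjusted p under 0.05 in edgeR, as had 1469 of all genes. Without WT Control replicate 2 fewer endothelial and stellate markers were called in WT, as were fewer of all genes. Bile duct and neutrophil markers gave 0 calls in either genotype (edgeR and DESeq2), with 3 of 5 and 0 of 3 at an unadjusted p under 0.05 in WT and 0 of 5 and 3 of 3 in *Elf4-/-*. In WT, 1 bile duct marker was called lower without any 1 of the 4 *Elf4-/-* libraries and in a model of the WT libraries alone. The 1 adipocyte marker in the table, *Cfd*, had at most 6 counts, and the 2 acinar ones at most 70. The part of these cells, and of the share of the mitochondrial genome, in the member differences was not tested, and in bulk tissue fewer cells of a type and less RNA per cell cannot be told apart.

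The mean profile of the 9 members, each as log2 CPM centred on its own mean, was −0.59 and −0.80 (Control) and 0.57 and 0.85 (EtOH) in WT, and −0.42 and −0.49 (Control) and 0.56 and 0.32 (EtOH) in *Elf4-/-*. Among 9389 other genes the most alike over the 8 libraries were *Akr1c13* (Pearson r = 0.994), *Eif4e* (0.991), *App* (0.988), *Ybx1* (0.988) and *Decr1* (0.987). They were picked for this likeness, and the 8 points share the separation of the diets. *Decr1* encodes the mitochondrial counterpart of *Decr2*. It was at 72.0 to 74.9 CPM (Control) and 190.4 to 250.1 (EtOH) in WT, and 80.6 to 84.3 (Control) and 158 to 169 (EtOH) in *Elf4-/-*, while *Decr2* stayed between 174 and 227 CPM throughout. *Akr1c13*, an aldo-keto reductase, went from 9.37 and 11.4 to 61.4 and 70.2 CPM in WT and from 14.9 and 16.2 to 39.3 and 52.0 in *Elf4-/-*.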

How the data were processed

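Total RNA of liver was sequenced by the authors in 8 libraries. Per the labels and the methods of the study, the authors used Trizol, HISAT2, SAMtools and HTSeq on genome build mm10, and tested with DESeq2; versions, gene annotation, strand setting and the treatment of reads shared by gene copies are not given in the sources used here. In the deposited file each library has 1 column of raw counts, whole numbers keyed by gene symbol, and all columns were used.

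Counts were tested with edgeR 4.0.16 in R 4.3.3, with filterByExpr by group (13993 genes, at least 99.8% of counts in each library), TMM scaling, 1 model of 4 groups over all 8 libraries, the quasi-likelihood test, and Benjamini-Hochberg adjustment over all genes tested in each of 5 contrasts at a threshold of 0.05. The biological coefficient of variation was 22.7%. log2 CPM used a prior count of 2. On data simulated for diet in WT over 13993 genes, with 200 genes changed, 30.3% of 2-fold and 79.2% of 4-fold changes were recovered. Of the symbols, 97.4% matched GENCODE M21 on GRCm38, the assembly of mm10, which gave coordinates and lengths. Promoters came from RefSeq (7 of 9 members; *Abcd2* and *Hsd17b4* not used).

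The members, lists and tests were chosen with earlier results of these data known. All 9 members were named, then, from each other list and contrast, the 2 called genes with the largest change and a mean of at least 50 counts, the 5 genes most like the members and *Elf4*. Beyond this rule, *Ppara*, *Ppargc1b*, *Cd36*, *Cyp4a10*, *Plin2*, the other called genes of short lists and *Cfd* were named after their values were seen. 1 gene of the lists is not reported here. Alternatives were DESeq2 1.42.0 without independent filtering, other scalings, other filters, a model of only the groups compared, a replicate block, and leaving out each library in turn; they were applied to the other lists and named genes only after the data had been seen. A comparison of protein sequences that had been planned was not made.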

Additional observations from a re-analysis of the deposited data

Results flagged for a closer look

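*Acaa1b* and *Decr2* stood out because groups that did not overlap moved in opposite directions. Lack of overlap was common, with 41.3% of all genes in genotype under EtOH and 38.5% under control diet. The share of all genes with such opposite moves was not computed. *Acaa1b* was lower in *Elf4-/-* than in WT under EtOH, with a log2 fold change of −0.66, and higher under control diet, with 0.63. The difference of these values, tested as the interaction, was −1.29 ± 0.50 (SE, edgeR unadjusted p = 0.0288, adjusted p = 0.434). *Decr2* changed by −0.091 under EtOH in WT and by 0.072 in *Elf4-/-*, and the interaction was 0.16 ± 0.27 (SE, edgeR adjusted p = 0.876). Neither interaction passed the threshold. The WT value of *Decr2* was 0.34 with library totals alone, and 0.030 with totals without genes of the mitochondrial genome, so its sign depends on the scaling.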

How the results depend on the processing

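With 1 library left out a group rests on 1 library, which is assumed to vary like the rest. Members called then ranged from 1 to 6 for diet in WT, 0 to 2 for diet in *Elf4-/-*, 0 to 1 for genotype under EtOH and for the interaction, and 0 throughout for genotype under control diet. Medians of the members ranged from 1.01 to 1.51 for diet in WT, 0.70 to 0.83 for diet in *Elf4-/-*, −0.39 to 0.028 for genotype under EtOH (above 0 only without WT EtOH replicate 2), 0.15 to 0.68 for genotype under control diet and −0.63 to −0.057 for the interaction. Signs changed in genotype under EtOH for *Abcd2* (−0.27 to 0.29), *Abcd3* (−0.30 to 0.39), *Acaa1a* (−0.39 to 0.028) and *Ehhadh* (−1.65 to 0.16), under control diet for *Pex11a* (−0.18 to 0.75), and in the interaction for *Abcd2* (−0.63 to 0.042), *Acaa1a* (−0.21 to 0.21) and *Hsd17b4* (−0.20 to 0.020).

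Scaling by library totals alone called 8 members for diet in WT, adding *Acaa1a* and *Crot*, and moved the medians to 1.74 for diet in WT, −0.43 for genotype under EtOH, 0.56 under control diet and −0.75 for the interaction. It turned *Decr2* to 0.34 in diet in WT, *Abcd2* to −0.19, *Abcd3* to −0.23 and *Hsd17b4* to −0.15 in genotype under EtOH, *Acaa1a* to 0.052 under control diet, and *Decr2* to −0.30 and *Crot* to −0.039 in the interaction. It shifted the median of all genes by 0.43, −0.034, −0.23, 0.23 and −0.46 in the order diet in WT, diet in *Elf4-/-*, genotype under EtOH, genotype under control diet and interaction. Totals without genes of the mitochondrial genome kept 6 and 1 calls in the diet contrasts and turned *Decr2* to 0.030 in diet in WT, and *Abcd2* to −0.042, *Abcd3* to −0.081 and *Hsd17b4* to −0.0011 in genotype under EtOH. *Abcd3* was −0.019 there when a mean of 50 counts was required, and *Acaa1a* in the interaction was 0.00017 in DESeq2 and 0.00048 with its size factors. None of these was a called member.

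DESeq2 called 3 members in diet in *Elf4-/-* and 1 in genotype under control diet, and a model of only the groups compared called 0 in diet in *Elf4-/-*. Over all genes edgeR called 3025, 404, 20, 2 and 0 in the same order. The counts that moved by over 1.5 times were 789, 178, 70 and 98 in the last 4 with DESeq2, 40, 0 and 22 in diet in *Elf4-/-* and both genotype contrasts with only the groups compared, 50, 14 and 7 in the last 3 without a filter, 5 under control diet with library totals, 13 and 0 in the genotype contrasts where a mean of 50 counts was required, and, with a library left out, 626 to 4023, 9 to 1683, 0 to 366, 0 to 53 and 0 to 139.

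Replicate numbers are shared between groups, and the labels do not say whether this marks a pairing. The correlation over genes of deviations of same-numbered libraries was −0.109 to 0.0594. It cannot decide the question, since shared handling may touch few genes or differ in direction between groups. With a replicate block, members called stayed at 6, 1, 0, 0 and 0, with medians of 1.30, 0.78, −0.19, 0.31 and −0.27, and all genes called were 2638, 252, 10, 2 and 0. In the simulation, made for diet in WT alone, 30.3% of 2-fold changes were recovered. It changed 200 genes, far fewer than the 3025 called in the data, and took the spread of each gene from the trend over all genes. That share is therefore not a measure of recovery in the data.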
